A study of Mus musculus with 36 samples.

Results

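The alpha subunits of the GABA-A receptor were followed through 2 brain regions of 3 lines of mutant mice. Each of the 5 genes analysed, Gabra2, Gabra3, Gabra4, Gabra5 and Gabra6, was taken with every probe set that the platform annotation assigns to it alone. This gave 12 probe sets of the 45101 on the array, 5 for Gabra2, 2 each for Gabra3, Gabra4 and Gabra6 and 1 for Gabra5, out of 18194 genes named by 1 symbol on a probe set. The probe sets were kept apart throughout, since the signal of one cannot be set against that of another.

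The GABA-A receptor is a chloride channel built of 5 subunits around a pore, usually a pair of alpha, a pair of beta and a single gamma or delta subunit, and it carries most fast inhibition in the brain. The alpha subunit largely fixes where in the cell a receptor sits, how sensitive it is to GABA and whether benzodiazepines act on it. The alpha subunits are distributed unevenly. Gabra6 is the subunit of cerebellar granule cells, where it is paired with Gabrd in receptors outside the synapse. Gabra5 is best known from the hippocampus, Gabra4 from thalamus, striatum and dentate gyrus, Gabra3 from cortex and brainstem, and Gabra2 from cortex, hippocampus and striatum and, in cerebellum, from Bergmann glia.

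Total RNA was hybridised to 36 one-colour Affymetrix arrays in 12 groups of 3, with forebrain and cerebellum taken from the lines stg, tg and lh. The symbols are used for stargazer (Cacng2), tottering (Cacna1a) and lethargic (Cacnb4), mutants of voltage-gated calcium channel genes with ataxia and absence seizures. Each line had a -/- and a +/+ group in each region, so there were stg-/-, tg-/- and lh-/- forebrain and cerebellum, and stg+/+, tg+/+ and lh+/+ forebrain and cerebellum. The labels do not give strain, age, sex, pooling of animals, or whether both regions came from the same mice, and they call the +/+ mice mutant as well. Replicate numbers of cerebellum arrays come from the labels; of the forebrain arrays only stg-/- replicate 2 carries a number there, and the other forebrain numbers are names in the order of the records, which pair nothing. P-values therefore measure the spread between these arrays.

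The deposited values are linear signal intensities. Changes are differences of log2(signal + 2.98) between groups, with standard errors from limma, and a change is called at an adjusted p under 0.05 (Benjamini-Hochberg over 27022 probe sets). Probe sets in the lower 40% by mean signal of a fit were left out of its tests, and their values are given without a p. The mutated genes were read from their brightest probe sets. Cacng2 changed by -4.53 in stg cerebellum and -3.61 in stg forebrain, Cacnb4 by -1.08 in lh forebrain (adjusted p = 0.0285) and by -0.61 in lh cerebellum without passing (adjusted p = 0.0814), and Cacna1a, which carries a missense change in tottering, was at 0.13 in tg cerebellum and 0.18 in tg forebrain. The arrays fall into 2 runs of records, of 20 and 16 arrays, and each run holds both genotypes of every line and region. By Xist, transcribed from the inactive X chromosome, and the Y-linked Eif2s3y, replicates 1 and 2 of every stg group were female and replicate 3 male, replicates 1 and 2 of every lh group were male and replicate 3 female, and all tg arrays were male. In stg and lh replicate 3 was also the array of the smaller run, so sex and run cannot be told apart there, and the sexes were balanced between -/- and +/+ in each line. On 3 forebrain arrays, stg+/+ replicates 1 and 2 and lh+/+ replicate 3, the pituitary transcripts Gh and Prl are high. With or without those arrays, none of the subunits was called in stg or lh forebrain.

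The promoters of the 2 genes that changed in the mutants differ in composition, and both are shown here because the results turn on these genes. All 5 genes matched RefSeq windows of assembly GRCm38.p6, which run on the gene's strand from 250 bases before to 50 bases after a start, 6 windows in all because Gabra3 has 2. The capitals mark TTGGC or its reverse complement GCCAA, the half-site of nuclear factor I, a family known to act on the Gabra6 promoter in granule cells. The Gabra6 window is chr11:42321023-42321322 and that of Gabra2 is chr5:71095800-71096099, both on the minus strand:
Gabra6: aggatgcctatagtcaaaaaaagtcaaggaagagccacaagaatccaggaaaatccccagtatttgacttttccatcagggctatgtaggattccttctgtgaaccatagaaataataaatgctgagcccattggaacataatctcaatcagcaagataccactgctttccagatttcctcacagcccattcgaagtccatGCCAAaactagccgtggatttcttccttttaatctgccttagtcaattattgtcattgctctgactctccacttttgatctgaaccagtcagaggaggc
Gabra2: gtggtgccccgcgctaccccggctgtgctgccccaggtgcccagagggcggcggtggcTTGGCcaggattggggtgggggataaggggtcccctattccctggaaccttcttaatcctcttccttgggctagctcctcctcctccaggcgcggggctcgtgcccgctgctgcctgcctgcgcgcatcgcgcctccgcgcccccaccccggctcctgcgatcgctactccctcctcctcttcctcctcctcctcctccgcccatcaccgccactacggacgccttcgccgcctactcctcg
The Gabra6 window had 42.0% G and C and 2 CpG sites, and the Gabra2 window had 70.0% G and C and 25 CpG sites, against medians of 52.7% and 7 over 32851 windows of the same length. Gabra4 (58.7%, 12 CpG) and Gabra5 (56.7%, 13 CpG) lay between them, and the Gabra3 windows (39.3% and 43.0%) held 0 CpG sites. The half-site occurred once in the Gabra6 and once in the Gabra2 window, on opposite strands, 2 times in Gabra4 and not in the Gabra3 and Gabra5 windows, while 46.7% of all windows hold it on at least 1 strand. Of the other motifs searched on both strands, the TATA box TATAAA (13.6% of all windows) occurred only in the Gabra3 windows, and TGACGTCA (1.79%) and CACGTG (7.15%), which do not overlap the half-site, occurred in none of the 6. Such matches describe letters in these windows and not sites in use.

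In +/+ mice the subunits were divided between the regions. Gabra6 was a cerebellar transcript, and Gabra2, Gabra3, Gabra4 and Gabra5 were all lower in cerebellum than in forebrain. Of the 12 probe sets 10 passed the filter in the fit over all arrays, and all 10 were called, 2 higher and 8 lower in cerebellum, where 58.2% of all probe sets were called. The 2 dimmest Gabra2 probe sets were not tested. The 2 Gabra6 probe sets were under the filter of the forebrain fit, and Gabra5 1433602_at and Gabra3 1421263_at under that of the cerebellum fit. These entered the fit over all arrays through the region where they are high, so their calls between regions were largely fixed in advance. Each of the 10 calls held in every alternative setting in which the probe set was tested, 9 or 10 per probe set, and with each +/+ array left out in turn.

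Gabra6 probe set 1417121_at ran from 6770 to 9171 on the 9 +/+ cerebellum arrays (median 7941) and from 2.83 to 178 on the 9 +/+ forebrain arrays (median 15.9). Probe set 1451706_a_at ran from 2963 to 3924 (median 3522) in cerebellum and from 1.21 to 67.1 (median 3.49) in forebrain. The regions did not overlap, with log2 differences of cerebellum minus forebrain of 8.60 (SE 0.44, adjusted p = 2.93e-17) and 8.52 (SE 0.40, adjusted p = 2.87e-18) in limma. These differences depend on the added constant because forebrain lies near the floor, and their calls were largely fixed in advance.

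Gabra5 was the reverse case. Its probe set, 1433602_at, ran from 1.12 to 29.1 on the +/+ cerebellum arrays (median 12.3) and from 316 to 510 on the +/+ forebrain arrays (median 459), a difference of -5.05 (SE 0.25, adjusted p = 1.47e-17), again with one region near the floor and a call largely fixed in advance. Gabra3 probe set 1436957_at ran from 39.9 to 79.2 (median 50.5) in cerebellum and from 476 to 639 (median 564) in forebrain, a difference of -3.32 (SE 0.11, adjusted p = 1.60e-22). The dimmer Gabra3 probe set 1421263_at differed by -2.71 (SE 0.18). The regions did not overlap in either gene, and the share of all probe sets for which this holds was not counted.

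Gabra4 and Gabra2 were measured well in both regions. Gabra4 probe set 1433707_at ran from 181 to 277 (median 242) in +/+ cerebellum and from 750 to 912 (median 829) in +/+ forebrain, a difference of -1.82 (SE 0.06, adjusted p = 1.28e-22), and 1429330_at differed by -1.56 (SE 0.13). Gabra2 probe set 1455444_at ran from 107 to 301 (median 264) in cerebellum and from 315 to 783 (median 672) in forebrain, a difference of -1.26 (SE 0.16, adjusted p = 5.12e-08). The other Gabra2 probe sets that were tested differed by -0.91 (1421738_at, SE 0.17) and -1.22 (1443865_at, SE 0.17). For 1455444_at the 9 arrays of each region did not overlap. For 1421738_at and 1443865_at they did, where the stg+/+ forebrain arrays reached down to 139 and 121.

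**Figure D1:**
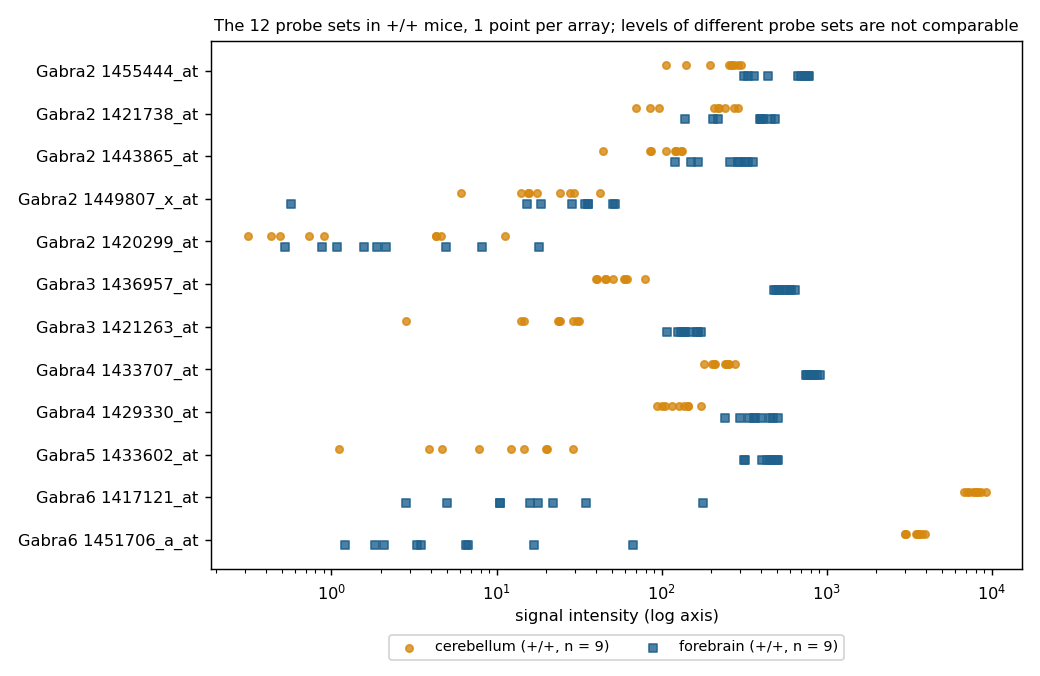
Signal intensity (log axis) of each of the 12 probe sets on the 9 +/+ cerebellum arrays (orange circles) and the 9 +/+ forebrain arrays (blue squares), 1 point per array. Gabra6 lies far to the right in cerebellum, at 2963 to 9171, and Gabra5, Gabra3, Gabra4 and Gabra2 lie to the right in forebrain; the 2 dimmest Gabra2 probe sets are near the floor in both.

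In the cerebellum of the mutants Gabra6 was lower in every line. Both probe sets of Gabra6 gave lower signals on all 3 -/- arrays than on all 3 +/+ arrays in stg, in tg and in lh, at 63.6% to 79.2% of the +/+ mean. Over all 27022 probe sets tested, -/- lay below +/+ without overlap in 7.48% in stg, 6.81% in tg and 5.47% in lh, and in 76 probe sets, or 0.281%, in all 3 lines. In limma, 1451706_a_at fell in stg, tg and lh, and 1417121_at fell in stg without passing in tg and lh. The 12 probe sets gave 2 calls in stg cerebellum, 4 in tg cerebellum and 1 in lh cerebellum, all lower, among the 8 that passed the filter there, while 0.777%, 0.229% and 0.0999% of all probe sets were called lower and 1.3%, 0.574% and 0.155% in either direction.

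In stg cerebellum Gabra6 probe set 1451706_a_at had signals of 1944, 1967 and 1774 in stg-/-, against 2973, 2963 and 3002 in stg+/+. The lowest stg+/+ array was well above the highest stg-/- array, and the change was -0.65 (SE 0.08, adjusted p = 0.000109). For 1417121_at the signals were 5222, 5267 and 5399 in stg-/- and 7076, 7311 and 6770 in stg+/+. The groups were again apart, and the fall of 0.41 on the log2 scale passed (SE 0.08, adjusted p = 0.0129). This second call was lost when stg-/- replicate 1, stg+/+ replicate 1 or stg+/+ replicate 2 was left out (adjusted p up to 0.0574), and that of 1451706_a_at was kept with each array left out (adjusted p up to 0.00125).

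In tg cerebellum 1451706_a_at had signals of 2953, 2430 and 2623 in tg-/-, against 3924, 3606 and 3762 in tg+/+. The change was -0.50 (SE 0.08, adjusted p = 0.00371), and it was called with each array left out. The signals of 1417121_at were 6556, 6343 and 7200 in tg-/- and 7941, 8277 and 9171 in tg+/+, a change of -0.34 (SE 0.08) that did not pass (adjusted p = 0.0888). The highest tg-/- array lay below the lowest tg+/+ array in both.

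In lh cerebellum 1451706_a_at had signals of 2629, 2565 and 2755 in lh-/-, against 3497, 3522 and 3603 in lh+/+. The change was -0.42 (SE 0.08, adjusted p = 0.0324), a call that did not survive the loss of any single array of the 6 (adjusted p up to 0.143). The signals of 1417121_at were 6625, 5766 and 6679 in lh-/- and 8572, 7726 and 8156 in lh+/+, a change of -0.36 (SE 0.08) that did not pass (adjusted p = 0.104). Within the 2 runs of records the differences of both probe sets in the 3 lines ran from -0.76 to -0.28 on the log2 scale. The lack of overlap fixed their sign in advance, and 1 run of each line held 1 array per genotype.

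**Figure D2:**
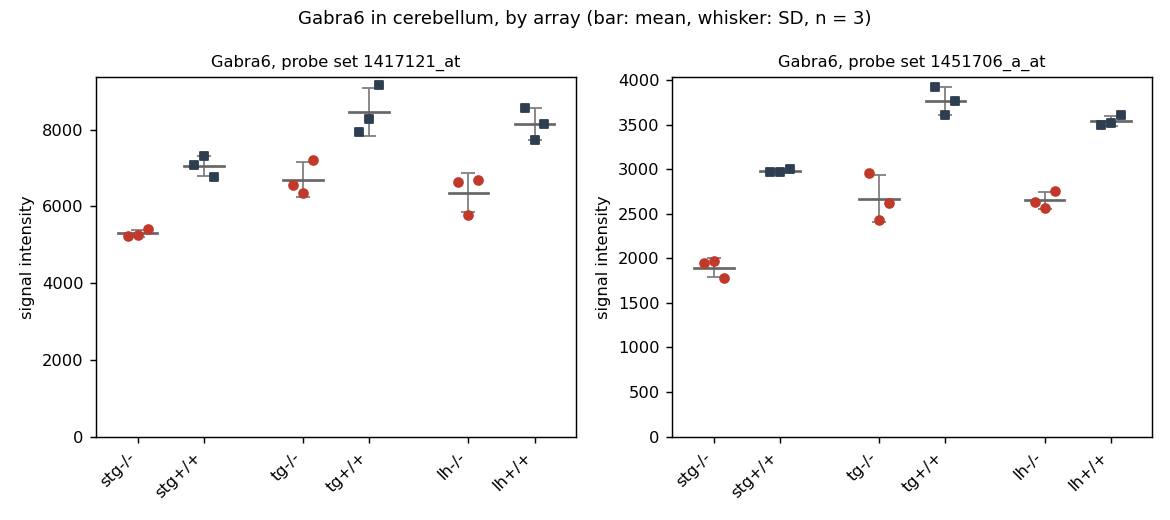
Signal intensity of the 2 Gabra6 probe sets on each cerebellum array, with -/- (red circles) left of +/+ (dark squares) in each line; bars are means and whiskers SD of 3 arrays. In all 6 pairs of groups every -/- array lies below every +/+ array.

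The 3 lines were not shown to differ in the size of the Gabra6 change. The F test of the effect among lines gave adjusted p of 0.781 for 1451706_a_at and 0.977 for 1417121_at, which does not show that the sizes are the same. Probe set 1451706_a_at was 1 of 2 probe sets, 0.0074% of those tested, that were called lower in all 3 cerebella. The other belongs to Stap2, an adaptor protein of signalling pathways, and was named after its values were seen; it changed by -0.74 in stg, -0.73 in tg and -1.11 in lh. The +/+ groups of the lines did not pass for Gabra6 (adjusted p = 0.092 and 0.311), and stg+/+ was the lowest of the 3 for both probe sets. When all 36 arrays entered 1 fit, which takes in the forebrain arrays where Gabra6 is near the floor and scattered, every Gabra6 call was lost (adjusted p of 0.848 or more).

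Since Gabra6 belongs to granule cells, other markers of these cells were read on the same arrays. In bulk tissue fewer cells of a type and less RNA per cell cannot be told apart. Of 10 granule cell markers tested in limma, 0 were called in stg cerebellum (2 at an unadjusted p under 0.05; median log2 change -0.01) and 0 in tg cerebellum (2 unadjusted; median -0.06). In lh cerebellum 1 was called, Calb2, a calcium buffer, at -0.89 (adjusted p = 0.0112), 9 of 10 lay below 0 and the median was -0.12. The median over all probe sets was 0.01, -0.01 and 0.02 in the 3 comparisons. Of all 27022 probe sets, 2899, 1967 and 2058 were at an unadjusted p under 0.05 in stg, tg and lh cerebellum in limma. Those below 0 made up 47.7%, 51.6% and 46.1%. The summed signal of the 10 markers was 26800 to 28708 in stg-/- against 27548 to 31992 in stg+/+, and 29278 to 30936 in tg-/- against 29744 to 31411 in tg+/+, with overlap in both. In lh it was 24309 to 26174 in lh-/- against 28989 to 32094 in lh+/+, without overlap. There 12.7% of single probe sets did not overlap in either direction, and 5.47% with -/- lower. Such shares of single probe sets do not measure how often a sum over several genes lies apart. With the replicate number as a block, which in stg also separates the sexes and the runs, 2 granule markers were called lower in stg, the transcription factor Neurod1 at -0.37 and the glutamate transporter Slc17a7 at -0.46. All 7 Purkinje cell markers lay above 0 in stg cerebellum (median 0.33, 4 at an unadjusted p under 0.05, 0 called in limma), with summed signals of 38236 to 43375 in stg-/- against 29853 to 37920 in stg+/+. Of 8 markers of Bergmann glia and astrocytes 7 lay above 0 (median 0.21, 1 called), with sums of 12602 to 14030 in stg-/- against 11484 to 12558 in stg+/+. Neither sum overlapped (15.6% of single probe sets did not overlap in either direction in stg cerebellum, again no measure for a sum). The part of these markers in the Gabra6 result was not tested.

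Gabrd, which encodes the delta subunit that granule cells pair with alpha6, was at -0.33 in stg cerebellum (SE 0.11, adjusted p = 0.191), 0.06 in tg and -0.23 in lh, with no call in limma. Its signal was 743 ± 35.8 in stg-/- against 934 ± 91.2 in stg+/+ (SD, n = 3 each), and those groups did not overlap (nor did 15.6% of all probe sets). With the replicate block the stg value passed (adjusted p = 0.0156). Gabrb2, the beta subunit of the same cells, was at -0.17, 0.09 and -0.18 in stg, tg and lh without a call.

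Gabra6 in forebrain lay near the floor and was not tested between genotypes. Its signal in 1417121_at was above 50 on 6 of 18 forebrain arrays, at 97.9 and 67.3 in stg-/- replicates 1 and 2, 70.3 and 120 in tg-/- replicates 2 and 3, 56.2 in lh-/- replicate 1 and 178 in stg+/+ replicate 1. Cbln3, a secreted protein of cerebellar granule cells, had its 6 highest forebrain signals on the same arrays, at 69.0, 86.1, 78.1, 111, 49.7 and 179, and between 3.30 and 27.6 on the other 12. On cerebellum arrays Cbln3 ran from 3948 to 6706. Cbln1, another granule cell marker, had its 6 highest forebrain signals on the same 6 forebrain arrays, at 289 to 385. The granule cell markers Fat2 and Neurod1 did not follow throughout. Fat2 was at 7.22 on stg-/- replicate 2 and at 31.2 on tg+/+ replicate 2. Neurod1 was at 173 on lh-/- replicate 1 and at 264 on lh+/+ replicate 3. The unfiltered log2 change of Gabra6 in tg forebrain was 2.29 with an SE of 0.99. The part of cerebellar tissue in these signals was not tested.

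**Figure D3:**
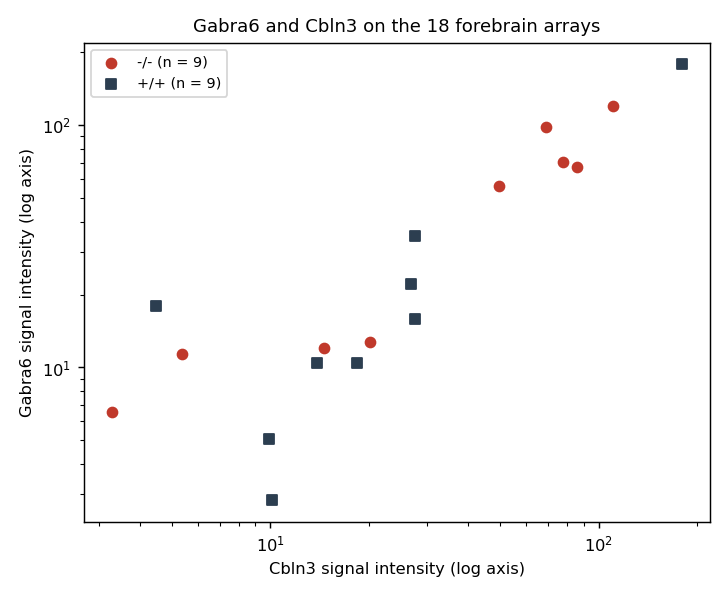
Gabra6 (probe set 1417121_at) against Cbln3 signal intensity on the 18 forebrain arrays, both on log axes, with -/- as red circles and +/+ as dark squares. The 6 arrays with Gabra6 above 50 are the 6 with Cbln3 of 49.7 or more, 5 of them -/- and 1 of them +/+.

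Gabra2 stood out in the tg line. In tg cerebellum its 3 brighter probe sets fell to 26.0% to 29.0% of the tg+/+ mean, and in tg forebrain to 31.9% to 39.8%, with no overlap between tg-/- and tg+/+ in any of the 6 cases (tg-/- below tg+/+ without overlap in 5.06% of all probe sets in forebrain). In stg and lh none of them was called in either region. The 3 probe sets moved together over the 18 arrays of each region (Pearson r of log2 values 0.898 to 0.972, arrays shared). The dimmer probe sets, 1449807_x_at and 1420299_at, had signals of at most 52.4 and 18.1 on any array and did not follow them (r from -0.318 to 0.243).

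In cerebellum 1455444_at had signals of 73.1, 66.2 and 78.8 in tg-/-, against 264, 274 and 257 in tg+/+. The change was -1.83 (SE 0.26, adjusted p = 0.00184), and the highest tg-/- array was far below the lowest tg+/+ array. Probe set 1421738_at had 47.7, 69.5 and 79.6 in tg-/- and 244, 289 and 223 in tg+/+, a change of -1.92 (SE 0.27, adjusted p = 0.00174). Probe set 1443865_at had 28.7, 36.6 and 38.4 in tg-/- and 107, 120 and 131 in tg+/+, a change of -1.71 (SE 0.29, adjusted p = 0.00723). All 3 calls held in the 11 alternative settings and with each of the 6 arrays left out.

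In forebrain 1455444_at had 274, 246 and 185 in tg-/-, against 672, 365 and 736 in tg+/+, a change of -1.27 (SE 0.26, adjusted p = 0.0462). The tg+/+ arrays were spread widely there, and the lowest of them was still above all tg-/- arrays. Probe set 1421738_at had 129, 147 and 124 in tg-/- and about 400 on 2 arrays and 457 on the other in tg+/+, a change of -1.63 (SE 0.29, adjusted p = 0.0201). Probe set 1443865_at had 128, 85.7 and 99.0 in tg-/- and 258, 320 and 294 in tg+/+, a change of -1.47 (SE 0.26, adjusted p = 0.0203). The 3 calls, in a comparison that called 0.0703% of all probe sets lower and 0.189% in either direction, were less firm than those in cerebellum: 1 was left without tg-/- replicate 1, tg+/+ replicate 1 or tg+/+ replicate 2, and 0 without tg-/- replicate 2 or 3 or tg+/+ replicate 3. Probe set 1455444_at passed in 6 of 11 alternative settings and the other 2 in 10 of 11. Within the runs of records tg-/- minus tg+/+ in the 3 probe sets ran from -2.28 to -1.66 in cerebellum and from -1.70 to -0.99 in forebrain. The lack of overlap fixed the sign of these differences in advance, and 1 of the runs held 1 array per genotype. The difference of the tg effect between regions was not called for any Gabra2 probe set (-0.55, -0.29 and -0.24). That test called 0.0259% of all probe sets in tg, 0.248% in stg and 0.0111% in lh. None of the 10 tested was called in stg or lh either (1 and 0 at an unadjusted p under 0.05 in limma). The 10 include the Gabra6 probe sets, under the filter in forebrain, and Gabra5 and the dimmer Gabra3 probe set, under it in cerebellum. With 1 region so low, the test cannot decide for these probe sets whether the effect differs between regions.

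**Figure D4:**
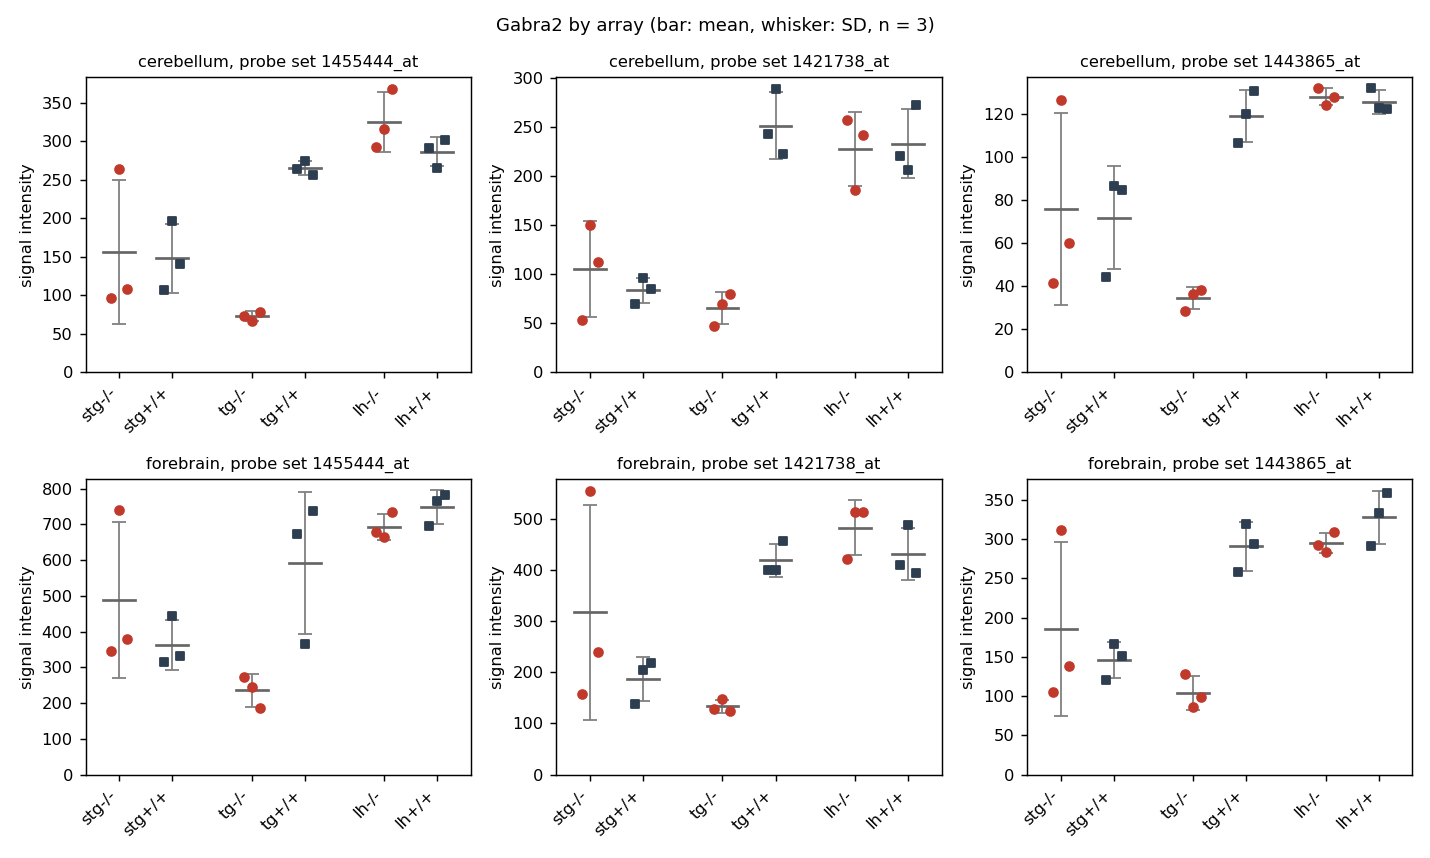
Signal intensity of the 3 brighter Gabra2 probe sets on each array, cerebellum above and forebrain below, with -/- (red circles) left of +/+ (dark squares) in each line; bars are means and whiskers SD of 3 arrays. The tg-/- arrays lie below the tg+/+ arrays in all 6 panels, and both stg groups lie low apart from 1 high stg-/- array.

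The +/+ groups were not alike for Gabra2. In 1421738_at the cerebellar signal was 252 ± 33.9 in tg+/+, 234 ± 35.1 in lh+/+ and 83.5 ± 12.9 in stg+/+ (SD, n = 3 each), and the F test among them was called (adjusted p = 0.00757), as were 0.881% of all probe sets. The pairwise tests called 0.2%, 0.496% and 0.618% of all probe sets, and the differences were 1.56 for tg+/+ minus stg+/+ (adjusted p = 0.0154), 1.45 for lh+/+ minus stg+/+ (adjusted p = 0.0161) and 0.11 for tg+/+ minus lh+/+ (adjusted p = 0.939). The call among the +/+ groups was lost without stg+/+ replicate 1 (adjusted p = 0.0538).

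The stg+/+ mean was also the lowest of the 3 in the other 2 bright probe sets and in forebrain, without a call. In cerebellum 1455444_at averaged 265 ± 8.72 in tg+/+, 286 ± 18.8 in lh+/+ and 148 ± 45.03 in stg+/+ (SD, n = 3 each; adjusted p = 0.148), and tg+/+ and lh+/+ overlapped. In forebrain 1421738_at averaged 419 ± 32.9 in tg+/+, 431 ± 50.8 in lh+/+ and 187 ± 42.5 in stg+/+ (adjusted p = 0.0915), where 0.414% of all probe sets were called. The tg-/- arrays of 1421738_at in cerebellum, at 47.7 to 79.6, overlapped the stg+/+ arrays at 70.0 to 95.8, and this pair was not tested. The strains of the lines are not given in the labels, and the sexes differ between these +/+ groups; the part of either in these levels was not tested.

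In stg and lh the Gabra2 changes were small beside the spread. In stg-/- cerebellum 1455444_at had signals of 96.2, 263 and 108 in replicates 1, 2 and 3, against 107, 196 and 141 in stg+/+, a change of -0.03 (adjusted p = 0.986). In stg-/- forebrain it had 345, 739 and 381, against 315, 444 and 331 in stg+/+, a change of 0.35 that was not called. Replicate 2 of stg-/- was the highest of its group in each region and in all 3 bright probe sets, up to 555 against 158 and 239 in forebrain 1421738_at. Without it the change of 1455444_at was -0.48 in cerebellum (adjusted p = 0.347) and 0.01 in forebrain, again not called. In lh the same probe set averaged 325 ± 38.9 in lh-/- and 286 ± 18.8 in lh+/+ in cerebellum, and 693 ± 37.2 in lh-/- and 748 ± 46.8 in lh+/+ in forebrain (SD, n = 3 each), with overlap in both regions.

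The difference between lines was itself tested. In cerebellum the effect of genotype on Gabra2 differed among the 3 lines in 1421738_at (adjusted p = 0.0191) and 1455444_at (adjusted p = 0.0246) and not in 1443865_at (adjusted p = 0.105), while 0.315% of all probe sets were called. These calls were sensitive to single arrays: none was left without tg-/- replicate 1 or 2 or tg+/+ replicate 1 or 2, and 3 were made without stg-/- replicate 1 or 2. In forebrain the effect was not called as differing among lines for any of the 8 probe sets tested (3 at an unadjusted p under 0.05 in limma), in a test that called 0.0259% of all probe sets. The share of all probe sets at that unadjusted p was not counted for this test.

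Gabra2 lies on chromosome 5 between Gabrg1 and Gabra4, followed by Gabrb1, per the RefSeq annotation. None of the measured neighbours of Gabra2 was called in tg. Gabrg1, a gamma subunit, was at 0.08 in tg cerebellum and 0.23 in tg forebrain, Gabrb1, a beta subunit, at -0.18 and -0.04, and Gabra4 at -0.21 and 0.04 in its brighter probe set.

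In the fits of each region, Gabra4, Gabra3 and Gabra5 gave no call between -/- and +/+ in any line where they were tested. Gabra5 1433602_at and Gabra3 1421263_at were under the filter in cerebellum and had no test there. In stg forebrain and in lh forebrain 0 of the 8 probe sets tested passed in limma, 0 of them at an unadjusted p under 0.05 as well, where 0.0111% and 0.0148% of all probe sets were called. Of all 27022 probe sets, 690 and 1045 were at that unadjusted p. In stg forebrain the brighter Gabra4 probe set was lower without overlap, as were 3.87% of all probe sets. In tg cerebellum the same probe set, 1433707_at, had signals of 219, 237 and 219 in tg-/-, against 254, 253 and 277 in tg+/+, again lower without overlap, and the change of -0.21 did not pass (adjusted p = 0.807). Log2 changes of the 8 ran from -0.18 to 0.58 in stg forebrain and from -0.23 to 0.17 in lh forebrain, the 0.58 being Gabra2 with its high stg-/- array. For Gabra4, a subunit of extrasynaptic receptors in forebrain, 1433707_at averaged 766 in stg-/- against 819 in stg+/+ forebrain, 814 in tg-/- against 792 in tg+/+, and 741 in lh-/- against 843 in lh+/+. The changes were -0.10, 0.04 and -0.18 with SE 0.09 in each.

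For Gabra3, which is known from cortical and monoaminergic neurons, 1436957_at changed by -0.05 in stg, -0.05 in tg and 0.08 in lh forebrain (SE 0.15). In tg cerebellum it had signals of 52.0, 63.9 and 57.8 in tg-/-, against 39.9, 45.4 and 46.1 in tg+/+. The groups did not overlap there, as in 14% of all probe sets in that comparison, and the change of 0.38 did not pass (SE 0.23, adjusted p = 0.834). The dimmer 1421263_at was also higher without overlap in tg cerebellum, at 27.5, 20.9 and 18.8 in tg-/- against 2.81, 14.8 and 14.0 in tg+/+, and it was under the filter and not tested. For Gabra5, the subunit of hippocampal extrasynaptic receptors, forebrain changes were -0.18, 0.16 and 0.04 in stg, tg and lh (SE 0.20). In stg cerebellum, near the floor, Gabra5 had signals of 1.46, 3.79 and 10.7 in stg-/-, against 29.1, 20.1 and 14.7 in stg+/+. It was under the filter of the cerebellum fit and had no p there. In the fit of all 36 arrays it passed the filter only through forebrain, where it is high. That fit called it in stg cerebellum, on signals near the floor, and the call is not read as a result.

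**Figure D5:**
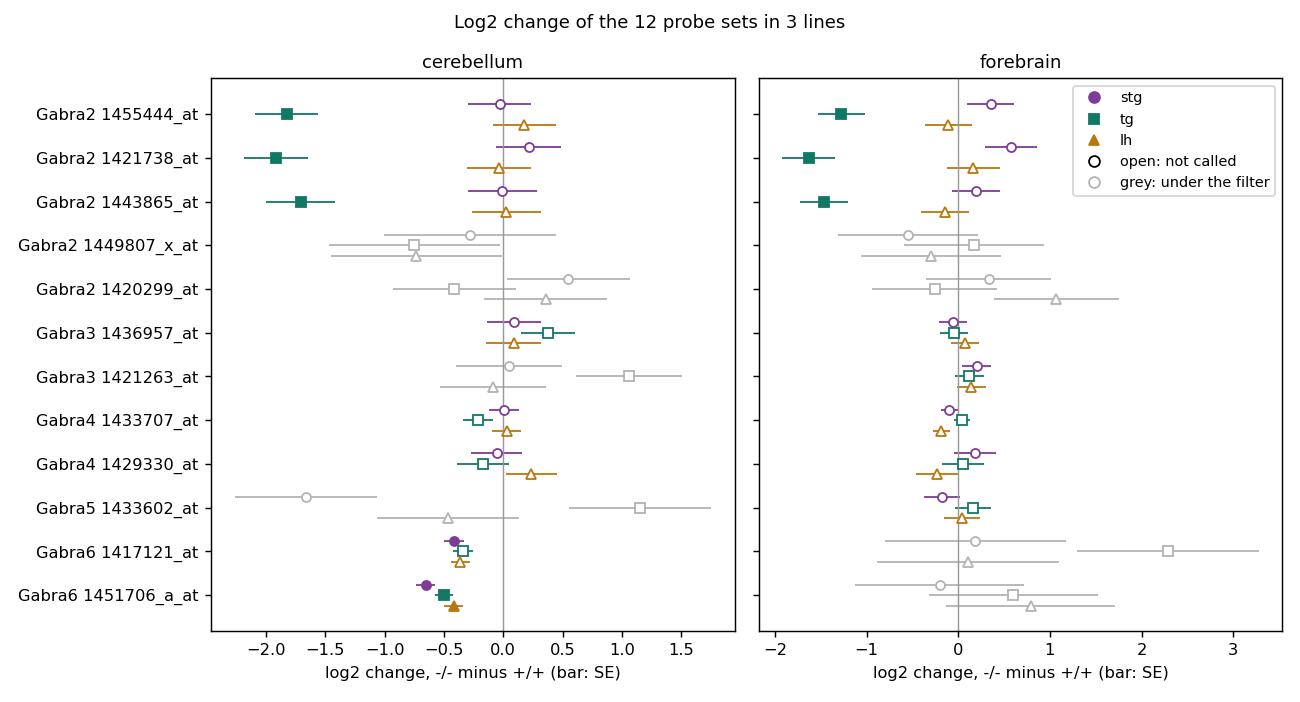
Log2 change, -/- minus +/+, of the 12 probe sets in stg (circles), tg (squares) and lh (triangles), cerebellum left and forebrain right, with SE bars; filled symbols are called, open ones are not, and grey ones were under the filter. The tg squares of Gabra2 at -1.92 to -1.27 and the Gabra6 symbols at -0.65 to -0.34 in cerebellum stand left of 0.

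The rest of the GABA system was read from a list of 33 partner genes, of which 26 had a probe set used here. Other subunits of the receptor were represented by 10 of 14 genes. In limma 0 of the 5 tested in cerebellum were called in stg, tg or lh (1, 0 and 2 at an unadjusted p under 0.05), and 0 of the 6 tested in forebrain (1, 0 and 0). Of 9 genes for scaffolds and trafficking 0 were called in any line or region (5, 0 and 1 unadjusted in stg, tg and lh cerebellum, and 0 in each forebrain comparison). Of all 27022 probe sets, 2899, 1967 and 2058 were at that unadjusted p in stg, tg and lh cerebellum. In forebrain they were 690, 1536 and 1045. With the replicate block Gabarap, which binds the receptor on its way to the membrane, was called in stg cerebellum at 0.24.

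Among 6 genes for GABA synthesis and transport Abat, the transaminase that breaks GABA down, rose in stg cerebellum by 0.36 (SE 0.08, adjusted p = 0.0362). Its signal was 1723 ± 56.3 in stg-/- against 1347 ± 110 in stg+/+ (SD, n = 3 each), without overlap. The synthetic enzymes Gad1 and Gad2 and the vesicular transporter Slc32a1 were between -0.26 and 0.30 in all 6 comparisons, with no call. Gabbr1, of the GABA-B receptor, was at 0.23 in stg cerebellum (adjusted p = 0.406; 0.0486 with the replicate block). The median change of the 21 partner genes tested in cerebellum was 0.13 in stg, 0.06 in tg and 0.07 in lh. By region, Gabrd (1.72) and Gabrb2 (0.32) were higher in +/+ cerebellum than in forebrain, as Gabra6 was, and Gabrb1 (-1.21) and Gabrg1 (-1.10) lower.

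The genes most like each subunit were taken by Pearson r of log2 values over the 18 arrays of a region, as a description of arrays that share groups. For Gabra6 in cerebellum these were Exph5 (0.942), Vsnl1 (0.931), Snap25 (0.921), Extl2 (0.910) and Nat8l (0.907). For Gabra2 they were Cuedc1 (0.896), Akap1, Gnb1, Actn1 and Stmn1 in cerebellum and Gli3 (0.793), Myh9, Cuedc1, Tmcc1 and Osgin2 in forebrain, so that Cuedc1 appears in both. In forebrain they were headed by Syp (0.904) for Gabra3, Cdc42ep3 (0.881) for Gabra4 and Scyl3 (0.856) for Gabra5.

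Markers of other cells and regions were read beside these results, 84 genes in 13 lists. In tg cerebellum 0 of 65 tested were called in limma (11 at an unadjusted p under 0.05), and in tg forebrain 0 of 79 (8 unadjusted). Of all 27022 probe sets, 1967 and 1536 were at that unadjusted p in these comparisons. Of 8 markers of Bergmann glia and astrocytes, cells that hold Gabra2 in cerebellum, 6 lay above 0 in tg cerebellum (median 0.14), with summed signals of 11664 to 13235 in tg-/- against 11440 to 12203 in tg+/+. Of all probe sets 51.6% lay below 0 in that comparison. In stg cerebellum the 3 called were the astrocyte filament Gfap (0.93), Slc17a6 (0.88) and Ntng1 (-1.15), and in stg and lh forebrain 0 of 79 were called (8 and 2 unadjusted). Of all 27022 probe sets, 690 and 1045 were at an unadjusted p under 0.05 in limma in stg and lh forebrain.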

How the data were processed

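The authors deposited a signal intensity on a linear scale for each probe set on every array. How these were made from the scans is not stated in the labels or the file. Every array has a trimmed mean of 150 (2% trimmed at each end), and array medians of log2 values span 0.326, so no normalization was applied. Intensities were log2-transformed after adding 2.98, the 10th percentile, 64 control probe sets were left out, and probe sets above the 40th percentile of mean log2 were tested with limma 3.58.1 in R 4.3.3 (a mean per group, intensity trend, two-sided). Fits took the 18 arrays of a region, or all 36 for differences between regions. Of the probe sets, 34958 had 1 gene symbol, 932 several and 9211 none. The number of arrays limits the precision.

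The genes and lists were chosen with earlier results of these data known. Every probe set of the 5 genes is named; partners are named where called, at most 4 per comparison, or as neighbours and delta or beta partners, and partner and marker genes stand for their brightest probe set. The 5 genes most like each subunit were ranked by Pearson r.

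Same-numbered cerebellum arrays deviated together in stg, where the pairs correlated at 0.156, 0.188 and 0.380 (limit 0.1), and 1 pair each lay under the limit in tg (0.040) and lh (0.095). The labels number the cerebellum arrays without saying that they are pairs, so the block is an alternative there. In stg replicate 3 differs from the others in sex and run of records (crossings with it lay at -0.243 to -0.174, those of replicates 1 and 2 at 0.055 and 0.092), so pairing, sex and run cannot be told apart. Forebrain numbers, other than that of stg-/- replicate 2, are names only and were not used to pair. The highest correlation between 2 arrays was 0.964, and 0 pairs were identical. On simulated data of 27022 probe sets in stg cerebellum, 21.2%, 70.1% and 97% of changes of 0.5, 1 and 2 on the log2 scale were recovered, with 5 false among 131 calls. In stg forebrain the same percentages were recovered, with 11 false among 137 calls, so the simulated recovery does not tell the regions apart. Alternatives were filters, constants of 1 and 16, quantile normalization, no trend, array weights, blocks, other array sets and leaving out each array.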

Additional observations from a re-analysis of the deposited data

Results flagged for a closer look

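In cerebellum the difference between -/- and +/+ mice in Gabra2 was itself different among the 3 lines in 2 probe sets. For 1421738_at the F test of the effect among lines gave an adjusted p of 0.0191, with log2 changes of -1.92 in tg, 0.21 in stg and -0.04 in lh. For 1455444_at it gave 0.0246, with changes of -1.83 in tg, -0.03 in stg and 0.18 in lh. In tg all 3 -/- arrays were lower than all 3 +/+ arrays, and in stg and lh the groups overlapped. The +/+ groups also differed in the first of these probe sets, at 252 ± 33.9 in tg+/+ against 83.5 ± 12.9 in stg+/+ (SD, n = 3 each).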

How the results depend on the processing

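No called value changed sign under any setting, while some values that were not called did. Of the single-probe-set values 2353 kept their side of the threshold, 57 lost a call and 15 gained one. Of the counts of called probe sets, that in stg cerebellum (2) was 1 with no filter, with no intensity trend and on the 6 arrays alone. It was also 1 with all 36 arrays in 1 fit, where Gabra5, which passed that filter only through forebrain, took the place of Gabra6. That in lh cerebellum (1) was 0 under each of those settings and 2 with a block for line and run of records and with the replicate block. That in tg forebrain (3) and that of the effect among lines in cerebellum (2) were 0 with no intensity trend. The +/+ groups differed in 3 probe sets in cerebellum with array weights and in 2 with the run block, in each case with Gabra6 added, against 1. The cause was not tested. Leaving out 1 array gave 0 to 0 calls in lh cerebellum, 1 to 2 in stg cerebellum, 4 to 4 in tg cerebellum and 0 to 1 in tg forebrain, 0 to 1 among +/+ groups in either region, 0 to 3 and 0 to 1 for the effect among lines in cerebellum and forebrain, 10 to 10 between regions, and 0 to 0 elsewhere. Without the 3 forebrain arrays high in Gh and Prl, a choice made after seeing the data, tg forebrain had 2. With the replicate number as a block, stg cerebellum had 2 and tg cerebellum 5. Whether the numbers pair the samples was not settled in tg and lh, where 1 pair each lay under the correlation limit. There the block added Gabra6 1417121_at (adjusted p = 0.00451 in tg and 0.00704 in lh) and 1 granule cell marker in lh, Cbln3 (-0.49), and over the 3 lines it added Gabra2 1443865_at to the effect among lines (adjusted p = 0.00362). It changed no other call of the 5 subunits. In stg and lh every -/- array correlated best with its own number, and in tg replicate 2 did not. Signals near the floor (Gabra6 in forebrain, Gabra5 in cerebellum, 2 Gabra2 probe sets) limit what can be measured there.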

Other observations

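In +/+ mice 9 of 10 granule cell markers and all 7 Purkinje markers were called higher in cerebellum, and all 6 markers of forebrain neurons lower, with median differences of 2.99, 4.08 and -4.82 on the log2 scale. Among the partners Slc6a11, a GABA transporter of astrocytes, differed by -2.24 and Gad2, an enzyme of GABA synthesis, by -0.86, both called lower in cerebellum, while Gad1 (0.13), Slc32a1 (0.11), Abat (-0.01) and Gabbr1 (0.06) were not called.

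Choroid plexus markers had positive changes for 5 of 5 genes in stg, tg and lh cerebellum, with medians of 0.80, 0.68 and 1.04 and 0 called in limma (1, 0 and 1 at an unadjusted p under 0.05). Over all 27022 probe sets, 47.7%, 51.6% and 46.1% lay below 0, and 2899, 1967 and 2058 were at that unadjusted p. The part of choroid plexus tissue in the other results was not tested.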
